A study of Mus musculus with 3 samples.

Results

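The genes of the IL-12 cytokine family and of its receptor chains were followed in LPS-stimulated RAW 264.7 macrophages. The set comprised 8 genes, Il12b, Il12a, Il23a, Il27, Ebi3, Il12rb1, Il12rb2 and Il27ra, chosen by gene symbol among the 26840 genes with a symbol on the array, and each was measured by 1 probe and 1 spot per array. RAW 264.7 is an immortalized macrophage-like mouse cell line. Cells in all conditions received 50 ng/mL LPS, the TLR4 agonist of Gram-negative bacteria, and 1 array was analysed per condition. In the CRL1505 + LPS condition the cells had first been kept for 24 h with 50000000 cells/mL of Lacticaseibacillus rhamnosus CRL1505, in the CRL1506 + LPS condition with the same density of Lactiplantibacillus plantarum CRL1506, and the lactobacilli were washed away before LPS was added. The LPS condition had no lactobacilli, and arrays of cells without LPS were not analysed here. The time of LPS exposure is given as 12 h in the study's design and as 3 h in the sample descriptions, so the hour to which the values belong is not settled.

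The comparisons asked how each strain altered the LPS response and how the strains differed from each other. Since each condition has 1 array, there is neither a replicate error nor a test, and a difference of at least 2-fold was counted without a p-value. Both lactobacilli conditions were set against the same LPS array, so the values of the 2 strains share its error. CRL1506 + LPS and LPS shared a slide and a scan, whereas the array of CRL1505 + LPS came from a different slide and scan, so an effect of CRL1505 and an effect of the slide cannot be told apart. In RNA from a whole culture, fewer cells expressing a gene and less RNA per cell cannot be told apart either.

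Cytokines of the IL-12 family are secreted as dimers of a helical alpha chain and a beta chain that resembles a soluble receptor. The p40 chain encoded by Il12b pairs with p35 from Il12a to form IL-12 and with p19 from Il23a to form IL-23, while EBI3 pairs with p28 from Il27 to form IL-27 and with p35 to form IL-35. Antigen-presenting cells such as macrophages and dendritic cells make IL-12, IL-23 and IL-27 after Toll-like receptor stimulation. IL-12 is recognised by IL12RB1 with IL12RB2 and promotes Th1 responses, IL-23 is recognised by IL12RB1 with IL23R and sustains Th17 cells, and IL-27 is recognised by IL27RA with gp130. These receptors are known mainly from T and NK cells, and the chains signal through Janus kinases to STAT proteins.

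The values of each gene rest on 60 bases of its transcript. The central 30 bases of the probe are shown for the 6 members that were well above background on at least 1 array, because a value reports the transcripts that hold these bases and no other part of the gene. Positions are those of the whole probe in mm9, as the array files give them, and the exon was not analysed here. The Il12b probe lies at chr11:44226781-44226840 on the plus strand, Il23a at chr10:127733766-127733825 on the minus strand, Il27 at chr7:133736137-133736196 on the minus strand and Ebi3 at chr17:56096309-56096368 on the plus strand. Among the receptor chains, Il12rb1 lies at chr8:73345261-73345320 on the plus strand and Il27ra at chr8:86554233-86554292 on the minus strand.
Il12b: tcaggatggaagagtcccccaaaagctgtc
Il23a: atcagcccagacatctaccagttaattaac
Il27: gagtgaacctggacctcctgcccctgggat
Ebi3: acttgacttcttcagacctcaatttccaac
Il12rb1: gtattgggcacttaataaatgggccttccc
Il27ra: gttacttatgcaccgaaaaacacacgcata

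Of the 8 members, 6 were well above background with LPS, 5 with CRL1505 + LPS and 6 with CRL1506 + LPS. Il12a and Il12rb2 did not reach that level on any array, and Il27ra was not on the CRL1505 + LPS array. No member's spot was saturated, uneven or an outlier. In each comparison 6 members had a ratio and the other 2, Il12a and Il12rb2, had none. Levels are given as scaled log2 signal, the log2 of the background-corrected signal minus the array's 75th percentile, so that 0 is the 75th percentile of that array. A level is compared only across arrays for the same probe, since probes differ in brightness at equal RNA.

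**Figure D1:**
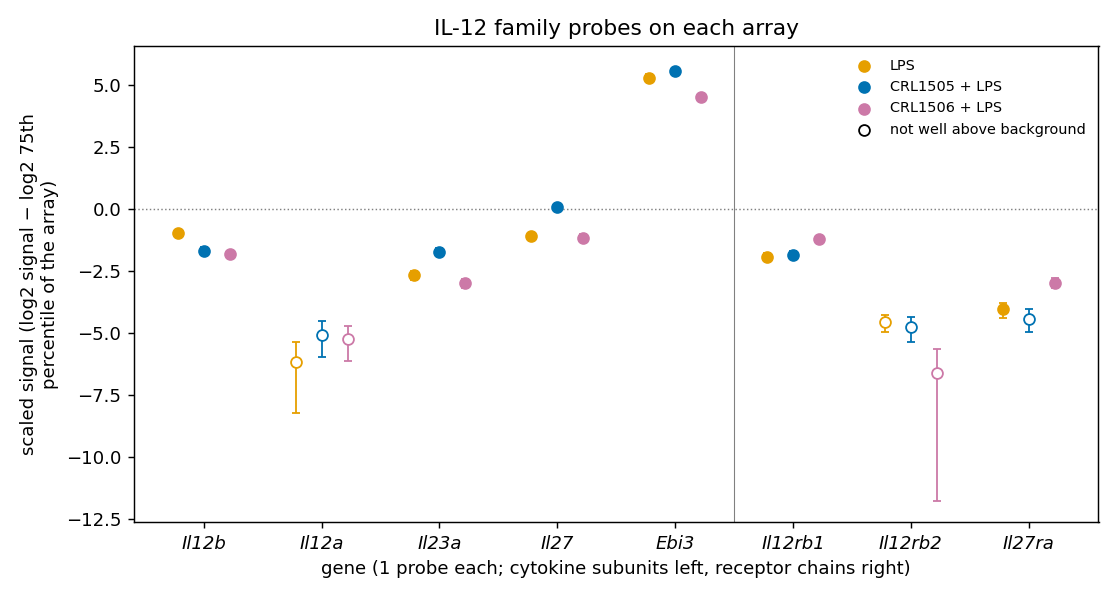
Scaled log2 signal of the 8 genes (y axis) on the LPS, CRL1505 + LPS and CRL1506 + LPS arrays, with 1 probe per gene on the x axis. Bars are the error of the spot as estimated by the scanning software, not a replicate error, and hollow points were not well above background. Il12b was highest with LPS alone, Il23a and Il27 with CRL1505 + LPS, and Il12rb1 and Il27ra with CRL1506 + LPS, while Ebi3 was lowest with CRL1506 + LPS.

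Against LPS alone, CRL1505 + LPS had 1 member at least 2-fold higher, Il27, where 9.92% of the 15609 genes compared were at least 2-fold higher, and 0 of 6 members at least 2-fold lower, where 8.41% of all genes were. CRL1506 + LPS had 1 member at least 2-fold higher, Il27ra, where 5.67% of 16284 genes were, and 0 of 6 at least 2-fold lower, where 3.52% of all genes were. When the strains were compared with each other, 3 of 6 members, Il23a, Il27 and Ebi3, were at least 2-fold higher with CRL1505 + LPS, where 9.01% of 15785 genes were, and 1 of 6, Il27ra, was at least 2-fold lower, where 7.46% were. The median size of the log2 ratio, without its sign, was 1.10 over the members and 0.42 over all genes in that comparison. Against LPS it was 0.49 over the members and 0.41 over all genes for CRL1505 + LPS, and 0.74 and 0.26 for CRL1506 + LPS. The values over all genes were not matched to the members in brightness. Between the strains, log2 ratios of genes of like brightness to Il23a had an SD of 0.87. For genes of like brightness to Ebi3 the SD was 0.55. Members lay on both sides of 0 within each comparison, and their signed medians were 0.18, -0.18 and 0.60 against 0.01, -0.06 and 0.03 over all genes.

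**Figure D2:**
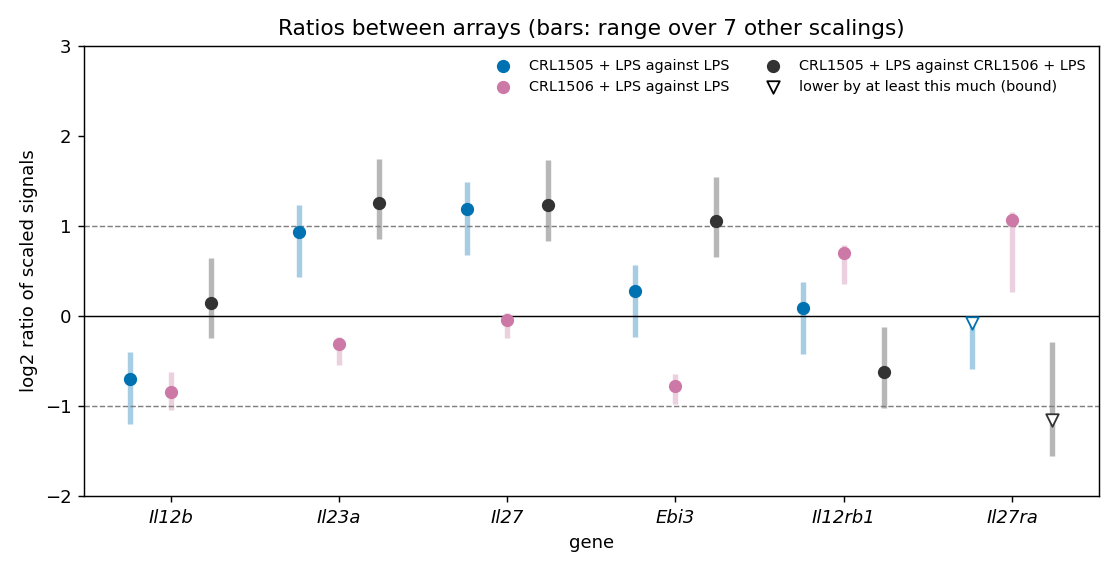
Log2 ratio of scaled signals (y axis) for the 6 comparable genes (x axis) in each comparison. Points are the ratios, bars their range over 7 other ways of scaling the arrays, and dashed lines mark 2-fold. Hollow triangles are bounds for Il27ra, which was not well above background with CRL1505 + LPS. For Il27ra with CRL1505 + LPS against LPS only 3 of the 7 scalings gave a bound, and its bar spans those. Il12b was below 0 against LPS with both strains under every scaling, and Il23a, Il27 and Ebi3 were above 0 between the strains under every scaling.

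Il12b encodes p40, the chain that IL-12 and IL-23 share. Its background-corrected signal was 377 with LPS, 162 with CRL1505 + LPS and 197 with CRL1506 + LPS, with software errors of 10.2%, 10.7% and 10.6%. The scaled levels were -0.98, -1.68 and -1.83. The LPS array was thus the highest, and both lactobacilli arrays lay below it and near each other. The ratio to LPS was 1.62-fold lower with CRL1505 + LPS and 1.80-fold lower with CRL1506 + LPS, with ranges over the scalings of -1.20 to -0.40 and -1.05 to -0.62 on the log2 scale. Between the strains the log2 ratio of 0.15 was smaller than its software error of 0.22 and changed sign over the scalings, from -0.25 to 0.65. Differences as large as those to LPS were common among probes of like brightness, reached by 32.5% of 1339 genes for CRL1505 + LPS and by 15.1% of 1374 for CRL1506 + LPS. On the LPS array 4 of the 20 nearest spots were uneven and the Il12b spot's mean pixel exceeded its median pixel by 0.16 on the log2 scale. With median pixels the log2 ratios were -0.53 and -0.60, so the lower values remained and were smaller. The software did not locate the Il12b spot on the CRL1505 + LPS array and read it at its nominal place.

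Il12a encodes p35, the partner of p40 in IL-12. Its signals were 10.3, 15.5 and 18.4 on the LPS, CRL1505 + LPS and CRL1506 + LPS arrays, with software errors of 75.9%, 47.0% and 45.3%. All were below the lowest signal that was well above background, which was 33.3, 29.6 and 33.1 on the respective arrays. No ratio between arrays can be given for p35.

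Il23a encodes p19, the alpha chain of IL-23. The signals were 118 with LPS, 157 with CRL1505 + LPS and 88.7 with CRL1506 + LPS, with software errors of 11.8%, 10.8% and 13.0%. Scaled levels were -2.66, -1.72 and -2.98. The CRL1505 + LPS array was the highest and the other arrays lay close together below it. Il23a was 1.92-fold higher with CRL1505 + LPS than with LPS, just under the 2-fold limit, and 2.38-fold higher than with CRL1506 + LPS. Over the scalings the log2 ratio to LPS ran from 0.43 to 1.23 and that between the strains from 0.85 to 1.75, at least 2-fold in 4 of 7. Its log2 ratio of -0.31 with CRL1506 + LPS against LPS stood beside a software error of 0.25 and was below 0 in 7 of 7 scalings. Among genes of like brightness 15.2% of 1377 differed as much between the strains and 22.6% of 1283 between CRL1505 + LPS and LPS. The software did not locate the Il23a spot on the LPS array.

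The IL-23 subunit genes thus lay on opposite sides of LPS with CRL1505, Il23a above and Il12b below. A difference between ratios of genes on the same arrays is untouched by any scaling that adds a constant to an array. The log2 ratio of Il23a exceeded that of Il12b by 1.63 for CRL1505 + LPS against LPS, with a range of 1.03 to 1.75, and by 0.53 for CRL1506 + LPS against LPS, with a range of 0.30 to 0.53. Between the strains the excess was 1.10, from 0.73 to 1.28. This states that p19 and p40 RNA differed unequally between arrays, and not how much of either was present. For CRL1505 + LPS against LPS the software errors were 0.23 for the log2 ratio of Il23a and 0.21 for that of Il12b. Each of these ratios also includes a spot that the software did not locate.

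Il27 encodes p28, the alpha chain of IL-27. Signals of 346, 548 and 314 were found on the LPS, CRL1505 + LPS and CRL1506 + LPS arrays, with software errors of 10.2%, 10.1% and 10.3%. The scaled levels were -1.10, 0.08 and -1.15. The CRL1505 + LPS array alone was high, and the LPS and CRL1506 + LPS arrays, which shared a slide, were nearly equal. Il27 was 2.28-fold higher with CRL1505 + LPS than with LPS and 2.36-fold higher than with CRL1506 + LPS. The first ratio ran from 0.68 to 1.48 on the log2 scale and was at least 2-fold in 4 of 7 scalings, and the second ran from 0.84 to 1.73 and was at least 2-fold in 6 of 7. The log2 ratio of CRL1506 + LPS to LPS was -0.05, within its software error of 0.21, and ran from -0.25 to 0.04. As large a difference between the strains was found in 8.93% of 1433 genes of like brightness, and between CRL1505 + LPS and LPS in 12.4% of 1417.

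Ebi3 encodes the beta chain of IL-27 and of IL-35. Its signals were 29141 with LPS, 24552 with CRL1505 + LPS and 15998 with CRL1506 + LPS, with a software error of 10% each. Scaled levels were 5.29, 5.57 and 4.52. The CRL1506 + LPS array was the lowest, and the LPS and CRL1505 + LPS arrays lay close to each other. Ebi3 was 1.71-fold lower with CRL1506 + LPS than with LPS, from -0.97 to -0.65 on the log2 scale over the scalings, and only 4.44% of 675 genes of like brightness differed as much. With CRL1505 + LPS the log2 ratio to LPS was 0.28 and ran from -0.23 to 0.57, so its direction depended on the scaling. Ebi3 was 2.07-fold higher with CRL1505 + LPS than with CRL1506 + LPS, at least 2-fold in 1 of 7 scalings and above 0 in 7 of 7. Between the strains 8.92% of 639 genes of like brightness differed as much.

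For the IL-27 pair, p28 and EBI3 were both higher with CRL1505 + LPS than with CRL1506 + LPS, by log2 ratios of 1.24 and 1.05, although they reached that difference from opposite sides of the LPS array. Il27 was high with CRL1505 while Ebi3 was low with CRL1506. The log2 ratio of Il27 exceeded that of Ebi3 by 0.91 for CRL1505 + LPS against LPS and by 0.73 for CRL1506 + LPS against LPS, and by 0.19 between the strains. The respective ranges over the scalings were 0.91 to 1.10, 0.57 to 0.73 and 0.19 to 0.52. Set against the p40 gene, Il27 was higher by 1.88 with CRL1505 + LPS and by 0.80 with CRL1506 + LPS, whereas Ebi3 was higher by 0.97 with CRL1505 + LPS and by 0.07 with CRL1506 + LPS. The last value ran from -0.17 to 0.27, so Ebi3 and Il12b were lower by like amounts with CRL1506.

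**Figure D3:**
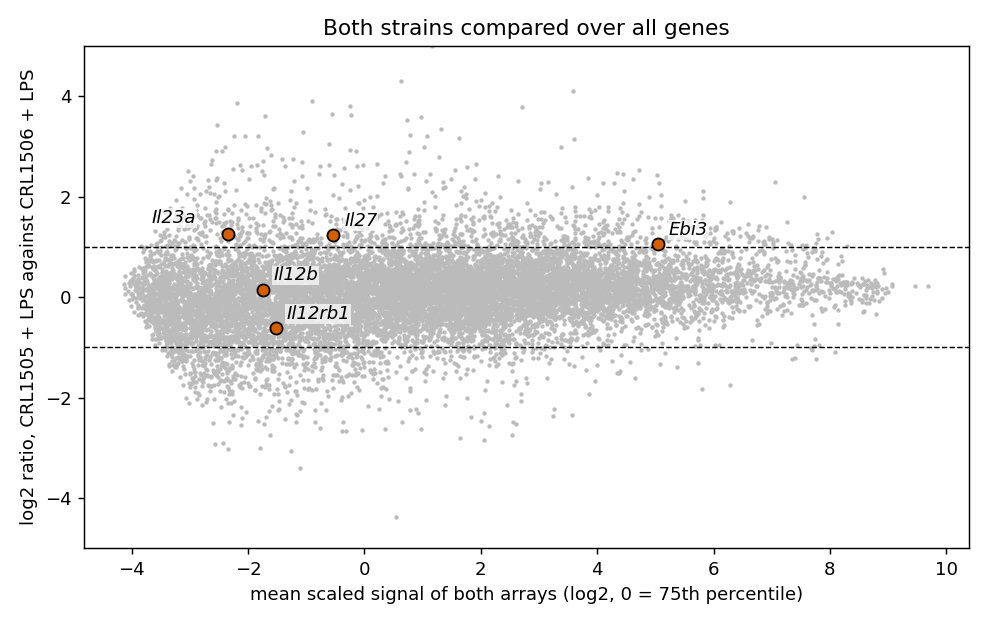
Log2 ratio of CRL1505 + LPS to CRL1506 + LPS (y axis) against the mean scaled log2 signal of these arrays (x axis) for 13315 genes well above background on both, of which 3 lie outside the plotted range. Grey points are all genes, orange points the 5 IL-12 family genes among them, and dashed lines mark 2-fold. Il23a, Il27 and Ebi3 lie just above the upper line at low, middle and high signal, and Il12b and Il12rb1 lie between the lines.

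The 250 bases before the start site are shown for Il12b and Ebi3, from RefSeq promoter windows on GRCm38.p6. Windows were available for Il12a, Il12b, Ebi3 and Il12rb2, and of these only Il12b and Ebi3 had a ratio. Both were lower with CRL1506, as was Il23a, for which there was no window. The Il12b window lies at chr11:44399813-44400062 and the Ebi3 window at chr17:55952373-55952622, both on the plus strand. Capitals mark a match to the NF-kappaB motif, which was searched on both strands together with the ISRE motif GAAANNGAAA, the AP-1 motif TGANTCA and the TATA box TATAAA.
Il12b promoter: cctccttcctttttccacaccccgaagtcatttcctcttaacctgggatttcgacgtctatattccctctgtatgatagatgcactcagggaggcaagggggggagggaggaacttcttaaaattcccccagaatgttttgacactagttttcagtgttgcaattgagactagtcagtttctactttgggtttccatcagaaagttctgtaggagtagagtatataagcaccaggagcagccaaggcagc
Ebi3 promoter: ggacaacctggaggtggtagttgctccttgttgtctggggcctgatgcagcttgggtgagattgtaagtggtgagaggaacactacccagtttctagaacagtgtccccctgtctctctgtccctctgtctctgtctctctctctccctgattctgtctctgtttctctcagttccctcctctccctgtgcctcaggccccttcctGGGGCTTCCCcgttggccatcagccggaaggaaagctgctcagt

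The Ebi3 window held 1 NF-kappaB match, at position -44 from the start and readable on both strands, and none of the other motifs. A match to this motif occurs in 9.55% of 32851 windows of the same length, to ISRE in 2.98%, to AP-1 in 6.75% and to the TATA box in 12.4%. The windows of Il12b, Il12a and Il12rb2 held no match to any of the motifs, which says only that these letters are not in these windows.

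Il12rb1 encodes the receptor chain shared by IL-12 and IL-23. Its signals were 196, 145 and 300.3 on the LPS, CRL1505 + LPS and CRL1506 + LPS arrays, with software errors of 10.8%, 11.1% and 10.4%. Scaled levels of -1.92, -1.84 and -1.22 set the CRL1506 + LPS array above the others, which were close together. Il12rb1 was 1.63-fold higher with CRL1506 + LPS than with LPS, from 0.36 to 0.79 on the log2 scale over the scalings. Among genes of like brightness 20.4% of 1366 differed as much, and between the strains 37.5% of 1420 differed as much as Il12rb1. The log2 ratio of CRL1505 + LPS to LPS was 0.08 and ran from -0.42 to 0.38, and between the strains Il12rb1 was 1.54-fold lower with CRL1505 + LPS, from -1.02 to -0.13. Il12rb1 and Il12b thus stood in opposite order with CRL1506, the receptor chain above and its ligand's chain below LPS, a difference between their log2 ratios of 1.55 that ran from 1.01 to 1.55.

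Il27ra encodes the IL-27-specific receptor chain. Its signals were 45.1 with LPS, 24.2 with CRL1505 + LPS and 88.9 with CRL1506 + LPS, with software errors of 20.5%, 31.4% and 13.7%, and the signal of 24.2 was not well above background. The scaled levels were -4.04, -4.41 and -2.97. The CRL1506 + LPS array was the highest of the 3. Il27ra was 2.10-fold higher with CRL1506 + LPS than with LPS, but at least 2-fold in 1 of 7 scalings, from 0.27 to 1.16 on the log2 scale, and 0.64 with median pixels. With CRL1505 + LPS it was at least 2.22-fold lower than with CRL1506 + LPS, a bound whose log2 value ran from -1.55 to -0.29 and passed 2-fold in 2 of 7 scalings. As large a difference between CRL1506 + LPS and LPS was found in 6.92% of 1735 genes of like brightness.

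Il12rb2, the second chain of the IL-12 receptor, gave signals of 31.3, 19.0 and 7.05 with software errors of 24.0%, 34.2% and 97.1%. None was well above background, so no order between the arrays can be read.

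The other chains and the kinases and STAT proteins through which this family signals were taken as a list of 7 genes. Il23r, the IL-23-specific receptor chain, was well above background with CRL1505 + LPS only, where its scaled level was -1.59, against -5.63 with LPS and -4.18 with CRL1506 + LPS. It was at least 7.42-fold higher with CRL1505 + LPS than with LPS and at least 6.02-fold higher than with CRL1506 + LPS, with log2 bounds of 1.65 to 3.37 and 1.48 to 3.28 over the scalings. Il6st, which encodes gp130, had log2 ratios to LPS of 0.13 with CRL1505 + LPS and 0.15 with CRL1506 + LPS by its brightest probe, but its 2 measurable probes disagreed, at -1.01 and 0.13 for CRL1505 + LPS.

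Of the Janus kinases, Jak2 was 2.88-fold higher with CRL1505 + LPS than with LPS, with its other probe at 1.47 on the log2 scale beside 1.53, while with CRL1506 + LPS its log2 ratio was 0.54. Jak1 had log2 ratios of 0.33 and 0.01 and Tyk2 of 0.50 and -0.37 with CRL1505 + LPS and CRL1506 + LPS. Stat3 was 3.27-fold higher with CRL1505 + LPS than with LPS, and its log2 ratio with CRL1506 + LPS was 0.57. A dimmer Stat3 probe, well above background on all arrays, gave log2 ratios to LPS of 1.41 and 0.999, so that the difference between the strains was 1.14 by the brighter probe and 0.41 by this one. Stat4, the main STAT protein of the IL-12 receptor, was dim on every array and has no ratio. Counts for the list use the brightest probe of each gene. With CRL1505 + LPS 3 of 6 comparable genes were at least 2-fold higher, beside 9.92% of all genes. With CRL1506 + LPS 0 of 5 were, beside 5.67%. By these probes none was at least 2-fold lower with either strain. The other measurable Il6st probe was past that limit with CRL1505 + LPS, at -1.01. The list's median log2 ratios were 1.01 and 0.15, beside 0.01 and -0.06 over all genes.

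**Figure D4:**
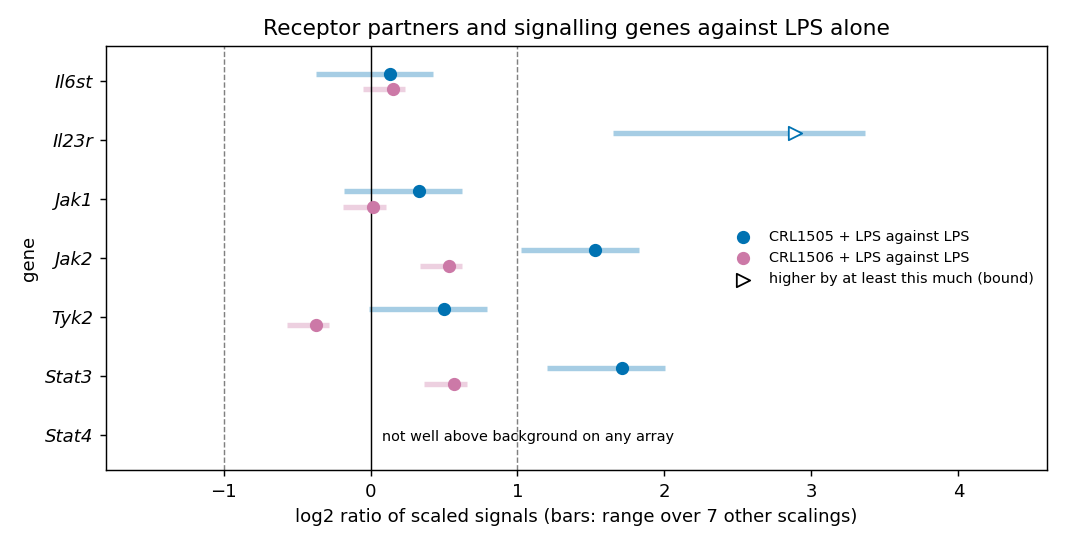
Log2 ratio to LPS alone (x axis) of the 7 receptor partner and signalling genes (y axis) with each strain. Points are ratios, bars their range over 7 other scalings, the hollow triangle is a lower bound for Il23r and dashed lines mark 2-fold. Jak2 and Stat3 lie beyond 2-fold with CRL1505 + LPS, and at 0.54 and 0.57 with CRL1506 + LPS.

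A list of 19 transcription and RNA-decay factors known to act on the subunit genes was well above background on every array. Against LPS, 3 of 19 were at least 2-fold higher with CRL1505 + LPS, beside 9.92% of all genes. With CRL1506 + LPS 0 of 19 were at least 2-fold higher and 1 of 19 at least 2-fold lower, beside 5.67% and 3.52% of all genes, so these counts are near the background. Irf7, an interferon regulatory factor, had log2 ratios of 1.90 with CRL1505 + LPS and 0.87 with CRL1506 + LPS. Its other probe gave 2.32 and 1.11, so by that probe Irf7 was at least 2-fold higher with CRL1506 + LPS too. The count of 0 of 19 rests on its brightest probe. Maf, a factor known to repress Il12b and to activate Il10, had ratios of 1.93 and 0.64, but another probe well above background on all arrays gave 0.76 and -0.36. Zfp36, which encodes the RNA-decay protein tristetraprolin, had log2 ratios of 1.36 and -0.11. On the CRL1506 + LPS array 11 of the 20 spots nearest the Zfp36 spot were uneven, though the spot itself was not. Bcl3, an atypical I-kappaB protein, was 2.19-fold lower with CRL1506 + LPS and had a log2 ratio of 0.19 with CRL1505 + LPS. As examples chosen after their values were seen, the NF-kappaB genes Rel, Rela and Nfkb1 had log2 ratios of 0.43, 0.46 and 0.71 with CRL1505 + LPS and of -0.47, -0.28 and -0.38 with CRL1506 + LPS. Irf5, chosen in the same way and known to activate Il12b and Il23a, had ratios of 0.35 and -0.86. With CRL1505 + LPS the lowest values over the scalings were -0.08 for Rel, -0.05 for Rela and -0.16 for Irf5. Of the list, 15 of 19 lay above 0 with CRL1505 + LPS and 16 of 19 below 0 with CRL1506 + LPS. These counts depended on the scaling. With CRL1505 + LPS the lowest value was below 0 also for Nfkbiz, Nfkbid, Bcl3, Irf1, Irf9 and Batf3. The highest was above 0 for Irf3, Irf8 and Ets2. With CRL1506 + LPS the highest was above 0 for Nfil3 and Zfp36. The 4 genes below 0 with CRL1505 + LPS were Irf3, Irf8, Spi1 and Ets2, at -0.23, -0.29, -0.38 and -0.19. With CRL1506 + LPS they stood at -0.15, -0.56, -0.76 and -0.45. Between the strains 7 of 19 were at least 2-fold higher and 0 of 19 at least 2-fold lower with CRL1505 + LPS, beside 9.01% and 7.46% of all genes, and 17 of 19 lay above 0. Among the 17, the lowest value over the scalings was below 0 for Irf8, Spi1 and Ets2. The median log2 ratio of the list between the strains was 0.85, beside 0.03 over all genes.

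Genes that respond to IL-12 family signals or limit them were taken as a list of 8. Socs1 and Socs3, feedback inhibitors of Janus kinase signalling, had log2 ratios to LPS of 1.54 and 1.48 with CRL1505 + LPS and of 0.30 and -0.49 with CRL1506 + LPS. Il10, which IL-27 is known to induce in T cells, had ratios of 2.97 and -0.08, and Cd274, which encodes PD-L1, of 3.74 and 1.48. Il18rap, a chain of the IL-18 receptor, was well above background with LPS only and was at least 2.62-fold lower with CRL1505 + LPS and, by a log2 bound of -1.54, with CRL1506 + LPS. Ifng and Il18r1 were dim on every array, and Tbx21, the Th1 factor, was well above background with CRL1506 + LPS only. Of the comparable genes, 4 of 5 were at least 2-fold higher and 1 of 5 at least 2-fold lower with CRL1505 + LPS, beside 9.92% and 8.41% of all genes. With CRL1506 + LPS the counts were 1 of 6 and 1 of 6, beside 5.67% and 3.52%.

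As a check of the label, 11 of 11 macrophage markers on the array were well above background on all arrays, with summed scaled levels of 9.59, 9.58 and 9.29 (log2) with LPS, CRL1505 + LPS and CRL1506 + LPS. Single markers differed more than these sums. With CRL1505 + LPS the log2 ratios to LPS were 2.27 for Adgre1, 2.40 for Fcgr1 and -1.47 for Csf1r. Thus 2 of 11 were at least 2-fold higher and 1 of 11 at least 2-fold lower, beside 9.92% and 8.41% of all genes. Of the T cell markers 5 of 7 were well above background on each array, with summed levels of 2.85, 3.55 and 3.00, and Cd3g and Cd8a on none. The NK cell list had 2, 2 and 1 of 4 above background, with summed levels of -2.65, -1.26 and -2.38. The dendritic cell list had 2, 1 and 3 of 5, with summed levels of -0.50, -0.19 and 0.10. All cultures were of the same macrophage-like cell line, so these sums are signals of marker genes and not counts of T or NK cells. Their relation to the values of Il23r and the members was not tested. The T cell and NK cell sums were the highest with CRL1505 + LPS, where Il23r, Il23a and Il27 were highest too. The dendritic cell sum was highest with CRL1506 + LPS. Lck gave the largest signal in the T cell sum, at scaled levels of 1.63, 3.09 and 2.15. With CRL1505 + LPS the largest signal in the NK cell sum was that of Klrk1. In the T cell list Lck had a log2 ratio to LPS of 1.46 there and Cd28 of -1.44, while Cd3e, Cd3d and Cd4 stood at -0.16, 0.02 and 0.00, and the list's median was 0.00. In the NK cell list Klrk1 had a log2 ratio of 2.47 with CRL1505 + LPS and of 1.19 with CRL1506 + LPS. With CRL1505 + LPS, Klrb1c was higher by a log2 bound of 0.73 and Ncr1 lower by a bound of -0.10, and Eomes was dim on every array. The B cell sums were -1.06, -2.11 and -1.37 and the fibroblast and epithelial sums -1.52, -2.07 and -1.56, so both were lowest with CRL1505 + LPS.

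By the root mean square difference of the log2 ratios to LPS of both strains, the genes most like Il12b were 2410018L13Rik, Nusap1 and Zfp784, and those most like Il23a were Tnn, E130314K07Rik and Arhgap31. Nearest to Il27 were Gm13023, Tnfsf15 and Plekhg3, nearest to Ebi3 were Rnls, Klf8 and Phf8, and nearest to Il12rb1 were 1700017B05Rik, Usf3 and Gm15247. All lay within 0.03 of their member, among 13124 genes. The likeness rests on 3 arrays, and as many as 39 genes lay within 0.1 of Il12b, 52 of Il23a, 78 of Il27, 25 of Ebi3 and 70 of Il12rb1.

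How closely a ratio can be read follows from the arrays themselves. The 75th percentile of the signal was 743, 517 and 698 and the share of gene spots well above background 54.5%, 48.5% and 55.3% on the LPS, CRL1505 + LPS and CRL1506 + LPS arrays. Ratios of different probes of the same gene had a median SD of 0.23 for CRL1505 + LPS against LPS, 0.21 for CRL1506 + LPS against LPS and 0.32 between the strains, on the log2 scale. The repeated spots of a probe varied by a median SD of 0.05, 0.04 and 0.05 over all repeated probes well above background. Dim probes varied more. For CRL1505 + LPS against LPS, repeated probes of like brightness to Il23a had a median SD of 0.24 (4 probes). At the brightness of Il12b it was 0.20 (1 probe) and at that of Ebi3 0.05 (42 probes). These spreads are within arrays and say nothing of the spread between cultures.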

How the data were processed

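RNA of RAW 264.7 macrophages was hybridised in 1 colour (Cy3) to SurePrint mouse arrays, 1 array per condition. The authors deposited scanner output whose headers name Feature Extraction 12.0.3.1, with background-corrected intensity and its error for each spot. They also deposited a normalized log2 table, whose centring is not given in the sources used here, and which served as an alternative. Groups were taken from the sample titles. Intensities were divided by each array's 75th percentile over 59305 gene spots, flagged outlier spots were left out, repeated spots averaged, and a gene with several probes was represented by its brightest probe. A ratio needed a signal well above background on at least 1 array. Where the dimmer array was not, the higher of its own signal and its lowest signal well above background gave a bound.

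The study's criteria, 2-fold and a t-test, need replicates, so the 2-fold limit was used alone. Alternatives were 7 other scalings (quantile, cyclic loess and normexp in limma 3.58.1, R 4.3.3), filters on dim, outlier and uneven spots, the choice of probe, 1.5-fold and 4-fold limits and, chosen after seeing the data, median pixels. No paired analysis was made. The rest ran in Python 3.11.15, and the calculation of ratios was checked on simulated data. The members, the gene lists and the rule for named genes (every member, every gene of the receptor partner and signalling list, and of the other lists those at least 2-fold from LPS) were chosen with earlier results of these data known. Promoter windows came from RefSeq. Some genes of the signalling pathway are not reported here.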

Additional observations from a re-analysis of the deposited data

Results flagged for a closer look

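For 4 members the LPS array lay between the lactobacilli arrays in measured scaled signal. The log2 ratio of CRL1505 + LPS to CRL1506 + LPS was 1.25 for Il23a, 1.24 for Il27, 1.05 for Ebi3 and -1.15 for Il27ra, the last a bound. With 1 array per condition these differences between the strains were not tested. For Il27 the side of LPS taken by CRL1506 + LPS, a log2 ratio of -0.05, was within the software error of 0.21. For Ebi3 the log2 ratio of CRL1505 + LPS to LPS was 0.28 but -0.23 under spike-in scaling, on the same side as CRL1506 + LPS. Il27ra was not well above background with CRL1505 + LPS, where its measured log2 difference from LPS of -0.37 was within a software error of 0.54.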

How the results depend on the processing

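Of 227 ratios of single members recomputed under other settings, 182 stayed within the median SD between probes of a gene and 45 moved beyond it. In 6 the sign changed, and 0 of these ratios had been at least 2-fold. They were Ebi3 (0.28 to -0.23) and Il12rb1 (0.08 to -0.42 and -0.03) for CRL1505 + LPS against LPS, Il27 (-0.05 to 0.04) for CRL1506 + LPS against LPS and Il12b (0.15 to -0.25 and -0.05) between the strains, under spike-in scaling or the 75th percentile over probes well above background on all arrays. Counts at the 2-fold limit moved more, and several members lie near it. The count of members higher with CRL1505 + LPS than with LPS was 1 and became 2 under median shift, cyclic loess, no filter on dim probes and a 1.5-fold limit, and 0 under spike-in scaling, normexp, the deposited log2 table and a 4-fold limit. The lower count of 0 became 1 under spike-in scaling and at 1.5-fold. For CRL1506 + LPS against LPS the higher count of 1 became 0 under median shift, spike-in scaling, quantile, cyclic loess, normexp, the deposited table, median pixels, probes well above background on all arrays and 4-fold, and 2 at 1.5-fold. The lower count of 0 became 1 under median shift and with no filter on dim probes, and 2 at 1.5-fold. Between the strains the higher count of 3 became 0 under spike-in scaling and 4-fold, 1 under normexp and the deposited table, 2 under quantile, cyclic loess and the 75th percentile over shared probes, and 4 with no filter on dim probes. The lower count of 1 became 0 under median shift, quantile, cyclic loess, normexp, the deposited table, median pixels, probes well above background on all arrays and 4-fold, and 2 under spike-in scaling and at 1.5-fold. Beyond the shift that a scaling gives to every gene, the cause was not tested. Median shift set the median gene at 0.35, -0.26 and 0.58 and spike-in scaling at -0.45, -0.17 and -0.31 in the 3 comparisons. No paired analysis was possible because each condition has 1 array, and no array can be left out. Signal over background limits Il12a and Il12rb2 on every array and Il27ra with CRL1505 + LPS.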
